A study of Mus musculus with 16 samples.

Results

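The mt-Cytb mRNA carried 15 RNase footprints, 10 of the 178 called on the track of *Lrpprc* control mice and 5 of the 124 called on the track of *Lrpprc* knockout mice. They are all the deposited footprints on the plus strand of the mitochondrial genome whose largest overlap, of at least 1 nt, with a gene on their own strand was with mt-Cytb (ENSMUSG00000064370.1, chrM:14145-15288, mm10). The gene lies between mt-Te, which is on the minus strand at chrM:14071-14139, and mt-Tt at chrM:15289-15355, and no footprint of either list crossed its ends. On the 13 mitochondrial mRNA and rRNA transcripts together there were 138 control-called and 87 knockout-called footprints.

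Heart mitochondria were taken from male C57BL/6N mice aged 12 weeks, either *Lrpprc* controls (Lrpprc loxP/loxP) or *Lrpprc* knockouts (Lrpprc loxP/loxP,Cre+), in which the gene is deleted in heart and skeletal muscle only. Both genotypes therefore carry the floxed allele, and a heart also holds cell types other than muscle. For each genotype there was 1 library after RNase A (10 U/µl), 1 after RNase T1 (0.1 U/µl), 1 after RNase If (0.01 U/µl) and 1 after mock digestion. The 4 libraries of a genotype were combined by the authors into 1 track, so there are no replicates. No value below has an error between mice, and no difference between genotypes was tested. The files give no read counts, so the depth behind each footprint is unknown. Libraries of *Slirp* mice were not analysed here.

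Cytochrome b is the core subunit of respiratory complex III that holds its b-type haems, and it is the only subunit of that complex encoded by mitochondrial DNA. LRPPRC is a pentatricopeptide repeat RNA-binding protein that forms a complex with SLIRP in the mitochondrial matrix and is known to be needed for the stability, polyadenylation and translation of mitochondrial mRNAs. Mitochondrial mRNAs have short or no untranslated regions, and several lack the last letters of their stop codon in the genome and gain them from the poly(A) tail.

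RNase A cuts after pyrimidines, RNase T1 after G in single strands, and RNase If prefers single strands of any sequence. The C score of a nucleotide compares the highest RNase-treated value with the mock-digested value of 5′ end coverage just downstream. It is the log10 of their ratio after the same constant is added to both. A C score of 0 means that no RNase cut above mock, which includes positions without any coverage. To be called a footprint, 8 to 40 consecutive nt had to average a lower C score than both 3 nt flanks. The F score of a footprint adds the ratio of central to left-flank accessibility and the ratio of central to right-flank accessibility, so a lower F score is a deeper footprint. The deposited footprints passed an FDR of 5% for a change of F score between genotypes. A control-called footprint is thus deeper in the control, and a knockout-called footprint deeper in the knockout, by the way they were called. The methods also required the central C score of a candidate to be higher in the experimental sample than in the control. They do not say how this was applied to knockout-called footprints. Flank accessibility, the harmonic mean of both flanks as a fold over mock, was recovered here from the C and F scores. Every fold over mock below, also given as times mock, includes the constant added in the C score. Low coverage would draw such a value towards that of mock.

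In 3 stretches of the mRNA, control-called and knockout-called footprints lay 0 to 1 nt apart or overlapped, and these stretches held 5 of the 10 control-called and 4 of the 5 knockout-called footprints. Their plus-strand sequences (RefSeq, GRCm38/mm10, 5′ to 3′, DNA letters) are each given on a pair of lines, with the control-called nucleotides in capitals in the first line and the knockout-called nucleotides in capitals in the second, and with 3 nt added on each side. Stretch 1 is chrM:14406-14444, stretch 2 chrM:14620-14690 and stretch 3 chrM:15110-15182.
Stretch 1, control-called: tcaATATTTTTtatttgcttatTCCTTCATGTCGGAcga
Stretch 1, knockout-called: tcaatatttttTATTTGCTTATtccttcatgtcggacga
Stretch 2, control-called: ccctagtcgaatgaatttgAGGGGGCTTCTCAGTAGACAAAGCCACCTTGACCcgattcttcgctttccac
Stretch 2, knockout-called: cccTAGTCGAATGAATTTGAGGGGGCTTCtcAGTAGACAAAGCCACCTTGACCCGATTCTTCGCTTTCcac
Stretch 3, control-called: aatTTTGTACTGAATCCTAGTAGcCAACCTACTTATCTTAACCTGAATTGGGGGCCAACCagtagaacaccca
Stretch 3, knockout-called: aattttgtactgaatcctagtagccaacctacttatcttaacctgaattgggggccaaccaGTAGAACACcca

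A pair of footprints outside these stretches is shown because one was the RNA that the study chose for its binding assays on mt-Cytb and the other is the only knockout-called footprint away from a control-called one. The first is control-called, at chrM:14993-15018 with its flanks, and the second is knockout-called, at chrM:14883-14923 with its flanks. Capitals mark the footprint and small letters its flanks.
Control-called binding target: aatCCCCAATAAACTAGGAGGTGtcc
Isolated knockout-called footprint: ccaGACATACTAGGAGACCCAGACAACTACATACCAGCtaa

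Along the mRNA, most control-called footprints lay in the first and the last of 3 equal parts and most knockout-called footprints in the middle one. By their centres, 4 control-called and 1 knockout-called footprints lay in the first part (nt 1 to 381, counted from the A of the start codon). The middle part (nt 382 to 763) held 1 and 3, and the last part (nt 764 to 1144) held 5 and 1. The knockout-called pair of stretch 2, 2 nt apart, is in the middle part. Merging footprints of one list within 3 nt left 4 knockout-called footprints, and the middle part then no longer held most of them. With counts this small and 1 track per genotype, the layout is a description of these tracks. Control-called footprints covered 206 of the 1144 nt (18.0%), beside 17.5% of the 13889 nt of all mRNA and rRNA transcripts. Knockout-called footprints covered 118 nt (10.3%), beside 11.9% of all transcript nucleotides. Both shares were thus close to those of all mRNA and rRNA transcripts together. The nucleotides in both lists numbered 32 (2.80%), all in stretch 2, and those in either list 292 (25.5%).

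**Figure D1:**
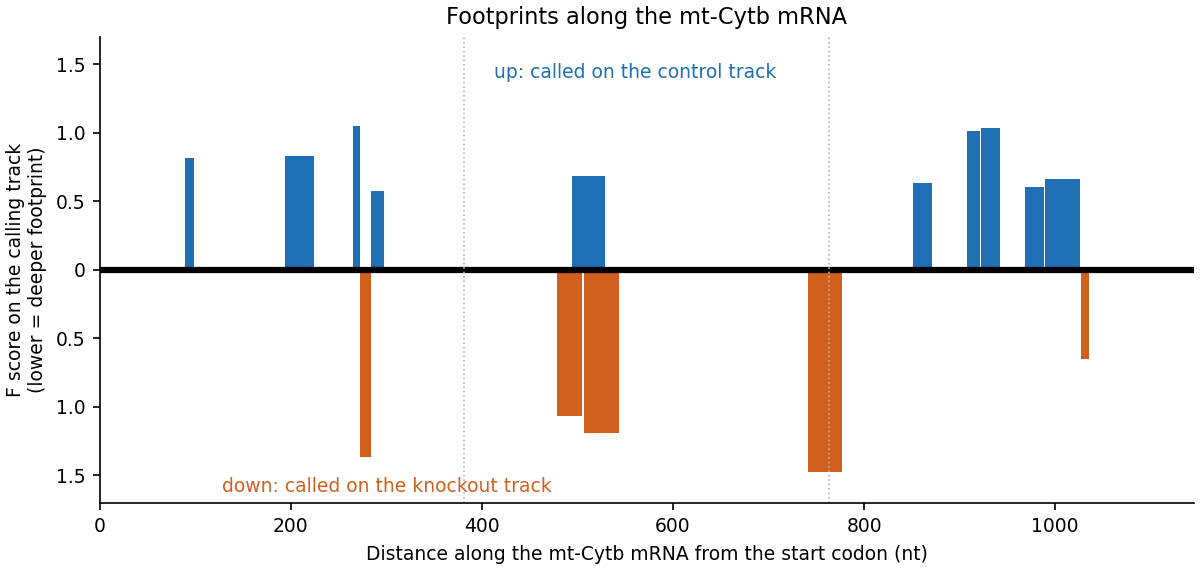
Footprints along the mt-Cytb mRNA, with the distance from the start codon in nt on the horizontal axis and the F score on the calling track as bar height, control-called upward and knockout-called downward. Each bar spans its footprint, dotted lines divide the mRNA into 3 equal parts, and the middle part holds 1 control-called and 3 knockout-called footprints.

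Neither end of the mRNA was in a footprint. The reading frame starts with ATG at the first nucleotide, and the first 89 nt were free of footprints of either list. The last 109 nt were also free, up to the T that remains after 381 complete codons and that the poly(A) tail extends to a stop codon. Among the 13 transcripts, the free length at the 5′ end was 4th from the longest, within a range from 0 nt in mt-Co1 to 247 nt in mt-Nd5. That at the 3′ end was 6th, within a range from 2 nt in mt-Rnr1 to 251 nt in mt-Nd2. The ends are shown with the start codon and the last encoded letter in capitals.
First 15 nt: ATGacaaacatacga
Last 15 nt: taaaattatatccaT

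Inside the mRNA, the longest span without any footprint was 198 nt, at nt 544 to 741, and the next 181 nt, at nt 298 to 478. The control-called list alone left 323 nt free at nt 529 to 851. The knockout-called list alone left 272 nt free at nt 1 to 272 and 250 nt at nt 777 to 1026. The control-called gap therefore contained the isolated knockout-called footprint, and each of the long knockout-called gaps contained several control-called footprints.

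The first control-called footprint, at chrM:14234-14242 (nt 90 to 98, codons 30 to 33), was 9 nt long. Its central C score was -0.443, an accessibility of 0.361 times mock, with an F score of 0.816. The harmonic mean of its flanks was also below mock, at 0.884 times, the lowest flank accessibility of the 138 control-called footprints on transcripts. It was the only one of the 15 footprints on mt-Cytb for which this mean was below mock. The left and right flank could not be read separately from these scores. The next, at chrM:14338-14368 (nt 194 to 224, codons 65 to 75), was 31 nt long, with a C score of -0.111, an F score of 0.827 and flanks at 1.87 times mock.

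Stretch 1 (nt 265 to 297) was 33 nt with no free nucleotide between its 3 footprints. Its control-called footprint at chrM:14409-14416 (codons 89 to 91), 8 nt long, had a C score of -0.00328 and an F score of 1.05, the highest F score of the 10. T made up 75% of its letters, the highest share among the 138 control-called footprints. The knockout-called footprint at chrM:14417-14427 (codons 91 to 95) began on the next nucleotide and spanned 11 nt, 63.6% of them T, with a C score of 0.0341 and an F score of 1.36. The control-called footprint at chrM:14428-14441 (codons 95 to 99) followed without a gap and had the lowest F score of the 10 at 0.576, with a C score of -0.220. It ranked 15th from the deepest of the 138. The nucleotides between the control-called footprints were thus those in the knockout-called one, and all 6 of the flank nucleotides of the latter were control-called.

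Stretch 2 (nt 479 to 543) spanned 65 nt, and there a single control-called footprint lay across a knockout-called pair. The control-called footprint at chrM:14639-14672 (codons 165 to 176), 34 nt long, had a C score of 0.0150, an F score of 0.681 and flanks at 3.04 times mock. The knockout-called footprint upstream, at chrM:14623-14648 (codons 160 to 168, 26 nt), overlapped it by 10 nt and had a C score of 0.118 and an F score of 1.06. That downstream, at chrM:14651-14687 (codons 169 to 181, 37 nt), overlapped it by 22 nt and had a C score of 0.0725 and an F score of 1.19. The knockout-called footprints were separated by 2 nt (TC in the second line above), which were inside the control-called footprint and served as flank on the knockout track. Together the knockout-called pair reached 16 nt further upstream and 15 nt further downstream than the control-called footprint.

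Stretch 3 (nt 969 to 1035) spanned 67 nt, of which 2 were in no footprint. The control-called footprint at chrM:15113-15132 (codons 323 to 330, 20 nt) had a C score of -0.0121, an F score of 0.601 and flanks at 3.24 times mock, the highest flank value of the 10. After 1 nt followed the control-called footprint at chrM:15134-15169 (codons 330 to 342), which at 36 nt was the longest of the 10, with a C score of -0.0484 and an F score of 0.659. After 1 more nt came the knockout-called footprint at chrM:15171-15179 (codons 343 to 345), 9 nt long, with a C score of 0.0131, flanks at 3.17 times mock and an F score of 0.651. That F score was the lowest of the 87 knockout-called footprints on transcripts, and over the whole list of 124 it ranked ninth. It was therefore as low as those of the control-called neighbours. The other 4 knockout-called footprints had F scores from 1.06 to 1.47, above every control-called F score on the mRNA. The paper reports that, apart from mt-Nd6, mitochondrial mRNAs were less stable in the knockout. Whether this bears on the F scores of the knockout track was not tested.

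The binding target, at chrM:14996-15015 (nt 852 to 871, codons 284 to 291), was 20 nt long with a C score of -0.228 and an F score of 0.635. Its centre was thus at 0.592 times mock and its flanks at 1.87 times, and it had the second lowest C score of the 10 after that of the footprint at nt 90 to 98. It ranked 27th from the deepest of the 138 control-called footprints on transcripts. It lay 75 nt downstream of the isolated knockout-called footprint at chrM:14886-14920 (nt 742 to 776, codons 248 to 259), which was 35 nt long with a C score of 0.0566, an F score of 1.47 and flanks at 1.55 times mock. This was the shallowest of the 5 knockout-called footprints. Both contain the word ACTAGGAG, which was looked for after the sequences were seen. It occurred 2 times in mt-Cytb, once in each of these footprints, and 0 times on the other 11 plus-strand transcripts, searched on the RNA strand only. A match of letters is a description, not a binding site.

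Upstream of stretch 3, another pair of control-called footprints stood 1 nt apart, at chrM:15052-15065 (nt 908 to 921, codons 303 to 307, 14 nt) and chrM:15067-15086 (nt 923 to 942, codons 308 to 314, 20 nt). Their C scores were 0.0502 and 0.00127 and their F scores 1.01 and 1.03, so both were shallow beside the binding target upstream. No knockout-called footprint lay next to them.

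The F and C scores of the mt-Cytb footprints lay within the range of those on the other transcripts, except for the knockout-called F score of 0.651. The median F score of the control-called footprints was 0.748 (range 0.576 to 1.05, SD over footprints 0.186, n = 10), beside 0.820 (range 0.389 to 1.33, SD 0.204, n = 128) on the other 12 transcripts. Their median C score was -0.0302, beside -0.0404, and their median length 20 nt, beside 15 nt. The median F score of the knockout-called footprints was 1.19 (range 0.651 to 1.47, SD 0.319, n = 5), beside 1.30 (range 0.751 to 1.81, SD 0.253, n = 82), and their median length was 26 nt, beside 14 nt. Footprints of 1 track share its libraries and are not replicates.

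The C score of the centre was below 0 in 7 of the 10 control-called footprints (70%, 95% Wilson interval 39.7 to 89.2%), beside 63.8% of the 138 on transcripts. It was above 0 in all 5 knockout-called footprints, where 0 of 5 were below 0 (Wilson upper limit 43.4%), beside 16.1% of the 87. Each share lay near its background, and the calling also filtered on the central C score. The intervals cover the counting of footprints only. The median flank accessibility was 2.02 times mock for the control-called and 1.99 times for the knockout-called footprints of mt-Cytb, against 2.18 and 1.53 times on the other transcripts.

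How often footprints of the lists lay next to each other on mt-Cytb, beside all transcripts pooled, depended on the distance that counted as near. On mt-Cytb, 4 of the 5 knockout-called footprints (80%, Wilson interval 37.6 to 96.4%) lay within 3 nt of a control-called footprint or overlapped one, beside 55.2% of all 87. Of the control-called footprints, 4 of 10 (40%, 16.8 to 68.7%) were that near to a knockout-called one, beside 40.6% of 138. With overlap of at least 1 nt only, 2 of the 5 knockout-called footprints (40%, 11.8 to 76.9%) counted, beside 44.8% of all 87. Among the control-called, 1 of 10 (10%) did, beside 31.2% of 138. Both shares were then below the pooled ones, but they rest on few footprints and the difference was not tested. Within the control-called list and at 3 nt, 4 of 10 (40%, 16.8 to 68.7%) were within 3 nt of another, beside 25.4%. Within the knockout-called list, 2 of 5 (40%, 11.8 to 76.9%) were, beside 4.6%. These are the pair of stretch 2, and they make up 2 of the 4 such footprints on all transcripts. The background value lay inside the Wilson interval for the first 3 of these shares at 3 nt. It lay below the interval for the last, whose members are 1 pair and so count each other. The 4 control-called footprints near another also form pairs that count each other. With a gap of at most 10 nt the share within the knockout-called list was still 2 of 5, beside 14.9% of all 87, a background inside its interval. Since a flank enters the F score, footprints that adjoin are not independent: 8 of the 15 footprints had flank nucleotides inside a footprint of the other list.

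Per kb of transcript, mt-Cytb carried 8.74 control-called footprints, eighth of the 13 transcripts, within a range from 5.75 in mt-Nd3 to 17.5 in mt-Co1. It carried 4.37 knockout-called footprints per kb, 11th of 13, within a range from 0 in mt-Nd3 to 9.48 in mt-Rnr2. Knockout-called footprints made up 33.3% of its 15 footprints (Wilson interval 15.2 to 58.3%), beside 38.7% of the 225 on all transcripts, so that the share did not stand apart from the background at these counts. By the distance between pairs of densities, the 3 transcripts most like mt-Cytb were mt-Nd6, with 9.63 and 5.78 footprints per kb, mt-Atp8/6, with 10.7 and 3.56, and mt-Nd4l/4, with 6.00 and 4.80, the control-called density first in each case.

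Grouped by the complex they encode, the 6 complex I transcripts carried 41 control-called and 36 knockout-called footprints (6.45 and 5.67 per kb) and the 3 complex IV transcripts 47 and 21 (15.6 and 6.97 per kb). The complex V transcript mt-Atp8/6 carried 9 and 3, and the rRNAs 31 and 22 (12.2 and 8.67 per kb). The control-called density of mt-Cytb, the complex III transcript, thus lay between those of complexes I and IV, and its knockout-called density below both.

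Footprints of mt-Cytb held more G than the mRNA as a whole. G made up 17.5% of the 206 control-called nucleotides (36 of them) and 20.3% of the 118 knockout-called nucleotides (24), against 12.2% of the whole mRNA and 10.3% of the 852 nt outside footprints. On the other 11 plus-strand transcripts these shares were 15.7% and 14.3%, and G was 12.4% of their whole length. The only 2 runs of 4 or more G in the mRNA, both of 5 G, were inside control-called footprints, at nt 496 to 500 and nt 1015 to 1019. The first was inside a knockout-called footprint as well. On the other 11 plus-strand transcripts, 1 of 5 such runs was inside a control-called and 3 were inside a knockout-called footprint. The motif was chosen after the sequences were seen and was searched on the RNA strand only.

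The flanks of the knockout-called footprints held no G at all. Of their 26 nt outside the knockout-called footprints themselves, 14 were C, 6 A and 6 T, so that 76.9% were C or T, beside 60.1% on the other plus-strand transcripts, where 7.97% were G. The flanks of the control-called footprints, 50 nt by the same count, were 18% G. RNase A cuts after C and U and RNase T1 after G, and the part of enzyme preference in the calls was not tested. A and T together made up 58.3% of control-called, 55.1% of knockout-called and 60.9% of all mt-Cytb nucleotides.

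Most footprints lay where folding of the mRNA without proteins was predicted to leave fewer nucleotides unpaired. The predicted probability of being unpaired averaged 0.558 over control-called and 0.507 over knockout-called nucleotides, against 0.667 outside footprints, a mean that 3 control-called and 1 knockout-called footprints exceeded. Single footprints ranged from 0.322, at nt 90 to 98, to 0.768, at nt 923 to 942, in the control-called list (SD 0.137, n = 10). In the knockout-called list they ranged from 0.289, at nt 479 to 504, to 0.691, at nt 742 to 776 (SD 0.155, n = 5). The order outside, control-called, knockout-called was kept with both other window sizes tried, although the means moved. In the prediction the first and last nucleotides of the mRNA lack neighbours to pair with, which bears on the mean outside footprints.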

How the data were processed

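Per the labels and the methods, reads of technical replicates were combined, adapters were removed with cutadapt 1.10, and Bowtie2 aligned the reads to mm10. Reads that also matched nuclear copies of the mitochondrial genome were kept, and the authors scaled the 5′ coverage of each strand (BEDtools) to library size. The deposited lists hold, per footprint, its length, central C score (a log10 ratio) and F score (a sum of linear ratios) on the calling track. They also hold a further value per footprint that has no column name, and it was not used.

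Genes came from GENCODE M21 and sequence from RefSeq, with mt-Atp8/6 and mt-Nd4l/4 as one transcript each. Coordinates are 1-based. Shares have Wilson 95% intervals. Unpaired probabilities came from RNAplfold of ViennaRNA 2.7.2 (window 150 nt, span 100 nt). Scripts ran under Python 3.11.15 with SciPy 1.17.1, NumPy 2.4.6 and, for figures, Matplotlib 3.10.9. Interval calculations were tested on simulated data. Sequences are printed for the deepest footprint of each list, for knockout-called footprints within 3 nt of a control-called one with their partners, for the study's binding target and, chosen after the values were seen, for the isolated knockout-called footprint and the ends. Other transcripts are named as the 3 nearest in both densities, by complex, and as the ends of a range. The gene, lists and settings were chosen with earlier results of these data known. PAR-CLIP and binding data were not analysed here.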

Additional observations from a re-analysis of the deposited data

Results flagged for a closer look

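On the strand opposite to mt-Cytb lay 3 knockout-called footprints and 0 control-called ones. Each list holds 31 footprints on the minus strand of the whole 16299 nt genome, of which mt-Cytb spans 1144 nt, so few would be looked for there. The 3 footprints are singled out because they stand outside the comparison of the mRNA itself, and whether the lists differ there was not tested. No gene is annotated on that strand at these positions. The first, at chrM:14949-14988, was 40 nt long with a C score of 0.0119 and an F score of 1.36. The second, at chrM:15116-15141, was 26 nt long with a C score of -0.00291 and an F score of 1.31, and 25 of its nucleotides lay opposite control-called footprints of stretch 3. The third, at chrM:15224-15234, was 11 nt long with a C score of 0.0301 and an F score of 1.37, opposite the footprint-free 3′ end of the mRNA.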

How the results depend on the processing

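Of 57 alternative values for 11 results, 47 moved by less than the spread over footprints or less than 1.5 times, and 10 moved further. With only footprints whose F score was at or below the median of their whole list, 6 control-called footprints (133 nt) and 3 knockout-called footprints (72 nt) remained. With strand ignored there were 8 knockout-called footprints (195 nt). With only central C scores below 0 there were 0 knockout-called footprints (0 nt) and 0 near a control-called one, so their median F score and A+T share had no value. With an overlap of at least 1 nt in place of a gap of at most 3 nt, 2 of 5 knockout-called footprints (40%) counted as near a control-called one, beside 44.8% of all 87. Predicted unpaired probabilities of control-called, knockout-called and outside nucleotides were 0.625, 0.606 and 0.727 with a window of 80 nt, and 0.533, 0.472 and 0.644 with 240 nt. No paired analysis was possible because each genotype has 1 combined track, which also left no replicate to leave out. The depth is unknown, so footprints missing from a list may be undetected.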

Other observations

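The footprints nearest to the mRNA on the same strand lay in mt-Tt, the tRNA gene for threonine that follows mt-Cytb, and the lists overlapped there. The control-called footprint at chrM:15317-15332, 28 nt beyond the last nucleotide of mt-Cytb, had a C score of -0.162 and an F score of 0.753. The knockout-called footprint at chrM:15314-15321, 25 nt beyond, had a C score of -0.256 and an F score of 1.00. Upstream, where no gene is annotated on this strand, the nearest control-called footprint was 298 nt away (chrM:13825-13846, F score 0.754) and the nearest knockout-called footprint 150 nt away (chrM:13986-13994, F score 1.88).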
